A study of Homo sapiens with 51 samples.

Results

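ZNF521, ZNF608 and SNPH are 3 of the 60664 genes counted in a study of DDX3, a DEAD-box RNA helicase, in human K562 cells. They were chosen by their large log2 fold changes in cells with the T532M form of DDX3 against cells with wild-type DDX3 (WT), so the values of that comparison are given as a description with no test. The levels of the 3 genes in genotypes other than T532M and WT were not used for the choice and are tested below. Tests that include WT reuse the control libraries of the choosing comparison, so they are not independent of the choice.

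K562 is an established chronic myelogenous leukaemia line, and in this study its cells were split into a cytoplasmic-labelled and a nuclear-labelled fraction before rRNA-depleted, strand-specific RNA sequencing. In the transgene set, a lentivirus supplied DDX3 as WT or as the mutant G325E, R326H, R351W, R376C, R534S or T532M while endogenous DDX3 was knocked down by CRISPR interference. The same set holds cells with the DDX3 guide and no transgene, and uninfected cells, whose place in this set is an assumption. In the guide set, CRISPR interference cells were given a knockdown guide, named sgDDX3, sgCNOT1 and sgNUP160 after their targets, or the control guide sgGal4. CNOT1 is the scaffold of the CCR4-NOT deadenylase, which shortens the tails of mRNAs, and NUP160 is a subunit of the nuclear pore. The labels describe the transgenes as overexpressed, so a mutant is compared with transgene WT, and they give neither the expression level of the protein nor whether a line is a clone. Each genotype had 2 libraries a fraction, except R376C with 1 each. The labels do not say whether replicates were separate cultures, so the spread that p-values measure may be technical.

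ZNF521 is a multi-zinc-finger transcriptional co-factor of early blood progenitors, known to bind the B-cell factor EBF1 and to recruit the NuRD chromatin remodelling complex. ZNF608 is a zinc finger protein whose mouse counterpart is known to repress the recombinase genes Rag1 and Rag2 in thymocytes. SNPH encodes syntaphilin, which anchors mitochondria on axonal microtubules and was first described as a syntaxin-binding inhibitor of SNARE assembly. NuRD and the mitochondrial motor genes were therefore examined beside the 3 genes.

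The 25 cytoplasmic-labelled libraries held 2354961 to 10386022 gene counts (median 5239671) and the 25 nuclear-labelled libraries held 3716156 to 21365002 (median 9322277). The targeted genes fell as labelled, with log2 changes (cytoplasmic-labelled, then nuclear-labelled) of -4.53 and -4.22 for CNOT1 in sgCNOT1, -3.70 and -3.38 for NUP160 in sgNUP160, -2.09 and -2.67 for DDX3X in sgDDX3, and -1.05 and -0.99 for DDX3X without a transgene against uninfected cells. DDX3X counts, which may hold both endogenous and transgene reads, differed by 0.16 ± 0.09 (adjusted p = 0.295) and 0.33 ± 0.05 (adjusted p = 9.06e-07) between WT and uninfected cells, and the R351W cytoplasmic-labelled libraries had 212 and 236 CPM of DDX3X against 289 and 290.4 CPM in uninfected ones. The fractions ran against their labels: MALAT1, a nuclear-retained RNA, stood at 20729 to 34091 CPM (counts per 1000000 gene counts of a library) in the cytoplasmic-labelled and 1665 to 3549 CPM in the nuclear-labelled libraries. A second R376C nuclear-labelled library was left aside, because 62.8% of its reads fell in no feature against 5.14% to 10.5% in the 25 used, and it held ZNF521 at 62.1 CPM against 25.2 CPM in the R376C library used. Summed K562 markers reached 2366 to 3658 CPM and 1487 to 2493 CPM in the 2 fractions, with 1 of 10 markers at 0 throughout, and lymphocyte markers summed to at most 7.32 CPM. GAD1, a neuron marker, reached 436 CPM and alone made most of the neuron sum. In these bulk libraries, fewer cells with a gene on and less RNA per cell cannot be told apart.

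In T532M cells, ZNF521 and ZNF608 were at a small fraction of their level in every other genotype, and SNPH was above its level in every other genotype. The 3 genes lie on different chromosomes in GENCODE 29 on GRCh38: ZNF521 (ENSG00000198795) at chr18:25061926-25352190 on the minus strand, ZNF608 (ENSG00000168916) at chr5:124636913-124748807 on the minus strand, and SNPH (ENSG00000101298) at chr20:1266280-1309328 on the plus strand. All are protein-coding genes. RefSeq promoter windows were matched for 2 of the 3 genes and are printed so that the sequence upstream of each start can be read beside the levels. They hold the 250 bases before the start (GRCh38.p14, ZNF608 chr5:124748825-124749074 minus strand, SNPH chr20:1266044-1266293 plus strand), written 5′ to 3′ with CCAAT boxes on either strand (CCAAT or ATTGG) in capitals.
ZNF608: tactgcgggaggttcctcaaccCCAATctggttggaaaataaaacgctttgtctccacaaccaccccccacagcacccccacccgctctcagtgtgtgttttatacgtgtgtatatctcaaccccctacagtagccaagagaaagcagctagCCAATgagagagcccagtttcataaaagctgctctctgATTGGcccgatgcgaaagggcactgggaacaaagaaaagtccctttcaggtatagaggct
SNPH: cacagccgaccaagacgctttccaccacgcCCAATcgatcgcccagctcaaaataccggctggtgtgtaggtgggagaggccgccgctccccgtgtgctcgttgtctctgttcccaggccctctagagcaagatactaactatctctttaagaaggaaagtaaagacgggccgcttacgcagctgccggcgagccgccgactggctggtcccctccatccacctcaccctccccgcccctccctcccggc
The ZNF608 window held 3 CCAAT boxes, 50.4% GC and 6 CpG, and the SNPH window held 1 CCAAT box, 62.4% GC and 19 CpG. A CCAAT box was present in 32.0% of 35116 RefSeq windows of this length, and the median window had 11 CpG. Of the other motifs searched on both strands, TATAAA (10.7% of windows) occurred 1 time for ZNF608, GGGCGG (42.6%) 1 time for SNPH, and GATAA (20.4%) and CACGTG (6.34%) in neither window.

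ZNF521 stood at 21 and 6 counts in the T532M cytoplasmic-labelled libraries, or 2.46 and 1.08 CPM. WT had 51.5 and 62.7 CPM, and the 23 libraries of other genotypes ran from 34.0 to 62.7 CPM (median 50.1). No other library came near the T532M values. In the nuclear-labelled fraction T532M held 0.798 and 1.17 CPM (6 counts each), against 21.5 and 22.9 CPM in WT and 18.8 to 28.97 CPM (median 22.7) in the other 23 libraries. T532M was 3.29% of WT by counts (exact 95% interval 2.15% to 4.84%, counting error only) in the cytoplasmic-labelled fraction and 4.26% (2.18% to 7.51%) in the nuclear-labelled one. The fitted log2 fold changes of T532M against WT were -4.89 ± 0.23 and -4.41 ± 0.28 (estimate ± SE, n = 2 against 2).

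ZNF608 held 1.06 and 1.79 CPM (9 and 10 counts) in T532M cytoplasmic-labelled libraries. WT held 34.2 and 30.6 CPM, and the other 23 libraries 29.9 to 69.2 CPM (median 38.8). In the nuclear-labelled fraction T532M had 2 and 1 counts (0.266 and 0.195 CPM) against 24.6 and 20.4 CPM in WT and 14.9 to 51.2 CPM (median 20.9) in the other 23. All other libraries lay far above T532M. By counts T532M was 4.20% of WT (2.50% to 6.67%) and 1.07% (0.219% to 3.14%), and the log2 fold changes were -4.54 ± 0.31 and -6.37 ± 0.38. With only 3 nuclear counts, the last value rests on few reads.

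SNPH was high rather than low. Its T532M cytoplasmic-labelled libraries held 286 and 160 counts (33.6 and 28.7 CPM) against 11 and 18 counts (2.65 and 2.98 CPM) in WT. Among the 23 other libraries it ran from 0.330 to 21.9 CPM (median 3.36). In the nuclear-labelled fraction T532M held 23.8 and 30.4 CPM, against 3.21 and 2.19 CPM in WT and 0.529 to 13.1 CPM (median 3.18) elsewhere. Both T532M libraries lay above every other library in both fractions. T532M was 11.1-fold above WT by counts (exact 95% interval 7.64 to 16.8, counting error only) and 10.1-fold (7.55 to 13.7), with log2 fold changes of 3.46 ± 0.31 and 3.45 ± 0.25. Against the 7 other genotypes of the transgene set the log2 difference was 2.16 to 5.20 in the cytoplasmic-labelled fraction and 2.44 to 4.94 in the nuclear-labelled fraction. The same ranges were -4.91 to -4.55 and -4.61 to -4.30 for ZNF521, and -4.94 to -4.48 and -6.27 to -5.96 for ZNF608.

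**Figure D1:**
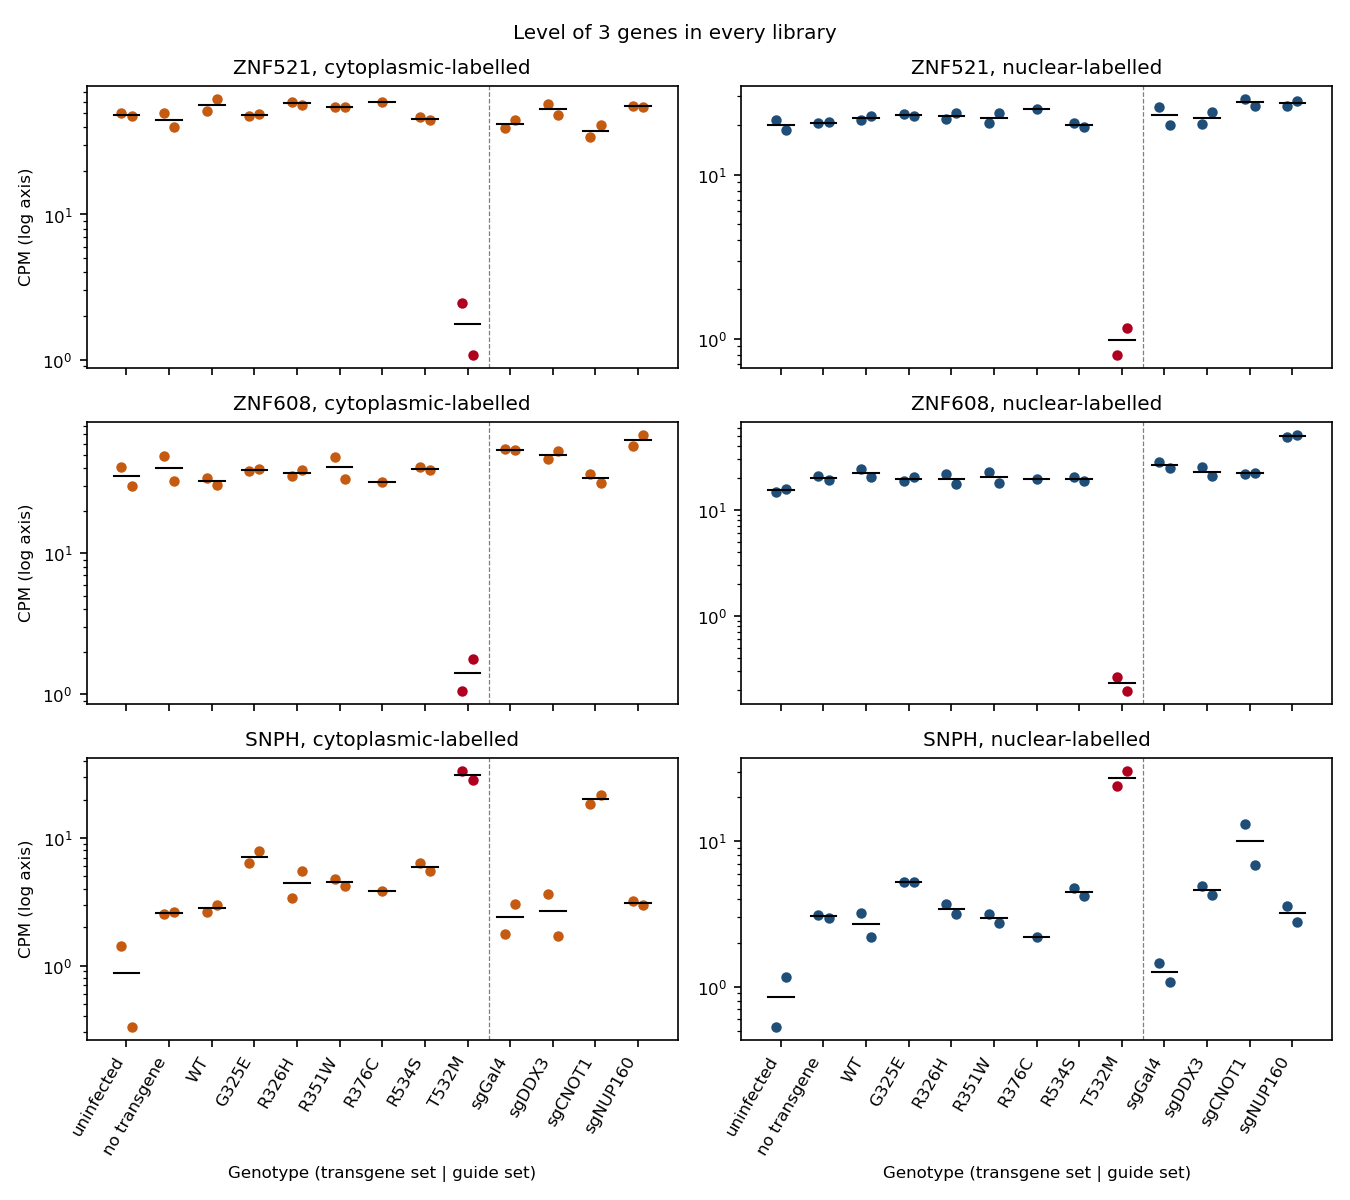
Level in CPM (log axis, with its range differing between panels) of each gene in every library, with the cytoplasmic-labelled fraction on the left and the nuclear-labelled fraction on the right. Points are libraries, bars are means, T532M is red, and the dashed line divides the transgene set from the guide set. T532M lies below all other genotypes for ZNF521 and ZNF608 and above them for SNPH.

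**Figure D2:**
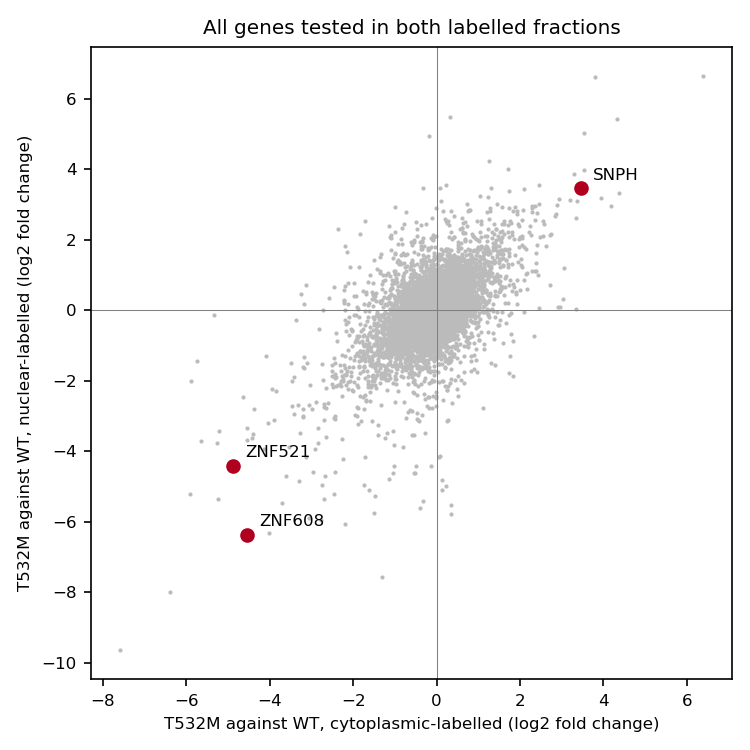
Log2 fold change of T532M against WT in the cytoplasmic-labelled (x axis) and nuclear-labelled (y axis) libraries, for every gene tested in both. ZNF521 and ZNF608 sit in the lower left corner and SNPH in the upper right, with a few genes farther out.

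The 3 genes were not the most changed of all. Ranked by log2 fold change among protein-coding genes tested, ZNF521 was the 12th lowest (cytoplasmic-labelled) and the 29th lowest (nuclear-labelled), and ZNF608 the 15th and the 5th. SNPH was the 10th and the 11th highest. AFP, which encodes alpha-fetoprotein, had -7.59 ± 0.98 and -9.65 ± 0.77, and LYPD6B 6.38 ± 1.73 and 6.65 ± 1.65, all with larger errors than the 3 genes. Across all genes 14.7% of 17530 and 35.1% of 14598 passed adjusted p under 0.05 in T532M against WT (Benjamini-Hochberg over all genes tested, edgeR's quasi-likelihood test).

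The low level of ZNF521 was seen in no other genotype. In the 11 other comparisons of each labelled fraction none passed the test. Of all genes, 0.827% to 25.8% (cytoplasmic-labelled) and 2.75% to 49.6% (nuclear-labelled) passed there. Log2 changes of ZNF521 were -0.34 to 0.28 with a lowest adjusted p of 0.166 (cytoplasmic-labelled). In the nuclear-labelled libraries they were -0.11 to 0.19, with a lowest adjusted p of 0.444. Without the first cytoplasmic-labelled library of cells without a transgene, their ZNF521 change against WT went from -0.29 to -0.50. That fit brought a call, but it leaves 1 library of that group. An F test of any difference among the 8 other genotypes of the transgene set gave adjusted p = 0.19 and 0.804 for ZNF521, where 22.3% and 46% of all genes passed. Outside T532M the levels ran from 37.7 ± 5.20 CPM (mean ± SD) in sgCNOT1 to 58.2 ± 1.69 CPM in R326H among cytoplasmic-labelled genotypes with 2 libraries, and from 20.1 ± 0.901 CPM in R534S to 27.5 ± 2.02 CPM in sgCNOT1 among nuclear-labelled ones. Most neighbours in that order overlapped in their libraries.

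The low level of ZNF608 was also seen in no other genotype. The F test among the 8 did not pass for it (adjusted p = 0.513 and 0.439). Above T532M, ZNF608 ran from 31.8 CPM in R376C to 63.3 ± 8.44 CPM in sgNUP160 (cytoplasmic-labelled) and from 15.3 ± 0.512 CPM in uninfected to 49.99 ± 1.72 CPM in sgNUP160 (nuclear-labelled), and neighbours from R376C to sgDDX3 in the first order and from G325E to sgGal4 in the second overlapped. In sgCNOT1 cells ZNF608 fell, from 54.5 and 53.6 CPM in sgGal4 to 36.6 and 31.7 CPM in the cytoplasmic-labelled libraries (-0.61 ± 0.18, adjusted p = 0.026). That call passed where 22% of all genes did, and it was lost without either sgGal4 library (adjusted p = 0.163 and 0.0878). In the nuclear-labelled libraries sgCNOT1 gave -0.35 ± 0.15 (adjusted p = 0.0487, 49.6% of genes passing), a call lost in 7 of 10 alternatives, with adjusted p up to 0.445 without the first sgGal4 library. By counts ZNF608 kept 64.4% of its sgGal4 level in sgCNOT1 cytoplasmic-labelled libraries (exact 95% interval 57.7% to 71.9%, counting error only). This interval leaves out the spread between replicate libraries, which was beyond counting error in sgCNOT1.

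sgNUP160 moved ZNF608 the other way, in the nuclear-labelled fraction. Its libraries held 48.8 and 51.2 CPM against 28.2 and 24.8 CPM in sgGal4 (0.87 ± 0.14, adjusted p = 6.46e-05, 15.9% of genes passing). In the cytoplasmic-labelled fraction the change was 0.05 ± 0.18 (adjusted p = 0.894, 15.2% of genes passing). The difference between the fractions' changes was 0.91 ± 0.25 (adjusted p = 0.0338, 3.66% of genes passing). WT against uninfected cells gave 0.41 ± 0.15 in the nuclear-labelled libraries (adjusted p = 0.039, 21.2% of genes passing), from 14.9 and 15.6 CPM to 24.6 and 20.4 CPM. That call was lost in 7 of 12 alternatives, with adjusted p = 0.339 without the first WT library, 0.174 and 0.124 without either uninfected library, 0.0915 with DESeq2 and 0.486 with the second R376C library kept.

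SNPH also rose in other comparisons. Of the 11 others, 4 (cytoplasmic-labelled) and 6 (nuclear-labelled) passed, all of them rises. In those 11, 0.827% to 25.8% (cytoplasmic-labelled) and 2.75% to 49.6% (nuclear-labelled) of all genes passed. Against WT only G325E passed, and the other passing rises were against uninfected or sgGal4 cells. The F test among the 8 other genotypes gave adjusted p = 9.19e-05 and 3.48e-06. The lowest levels were in uninfected cells, at 1.41 and 0.330 CPM (8 and 2 counts) and 0.529 and 1.17 CPM (5 and 11 counts), and the next lowest in sgGal4 cells. Counts this low limit the precision of each comparison that uses those controls.

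In sgCNOT1 cells SNPH rose to 18.6 and 21.9 CPM in the cytoplasmic-labelled libraries, against 1.77 and 3.02 CPM in sgGal4 (3.15 ± 0.36, adjusted p = 2.93e-05). In the nuclear-labelled libraries it rose to 13.1 and 6.84 CPM from 1.47 and 1.08 CPM (2.84 ± 0.37, adjusted p = 2.41e-07). Of all genes, 22% and 49.6% passed in these 2 comparisons. By counts the SNPH rise was 8.63-fold (exact 95% interval 6.02 to 12.8, counting error only) and 8.02-fold (5.11 to 13.3). T532M stood at 31.1 ± 3.46 and 27.1 ± 4.70 CPM and sgCNOT1 at 20.3 ± 2.36 and 9.97 ± 4.43 CPM (mean ± SD, n = 2), as the highest and second-highest genotype of the 13 in both fractions. Of the 3 genes, ZNF608 fell and SNPH rose in sgCNOT1 cells, while ZNF521 had -0.12 ± 0.18 and 0.15 ± 0.16 (adjusted p = 0.665 and 0.444). The difference between the 2 fractions' SNPH changes was -0.34 ± 0.59 (adjusted p = 0.815, 5.83% of genes passing).

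In sgDDX3 cells SNPH rose in the nuclear-labelled libraries, to 4.93 and 4.25 CPM (1.75 ± 0.41, adjusted p = 0.00155, 31.3% of genes passing). In the cytoplasmic-labelled libraries it held 3.66 and 1.70 CPM, overlapping sgGal4 (0.11 ± 0.47, adjusted p = 0.937, 2.77% of genes passing). The difference between the fractions did not pass (1.66 ± 0.68, adjusted p = 0.271, 2.37% of genes passing). sgNUP160 gave 1.26 ± 0.43 in the nuclear-labelled libraries (adjusted p = 0.0431) and 0.24 ± 0.48 in the cytoplasmic-labelled ones (adjusted p = 0.773). The nuclear call was lost without any of the 4 sgGal4 and sgNUP160 libraries (adjusted p = 0.203, 0.148, 0.328 and 0.0579) and with DESeq2 (adjusted p = 0.0866).

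Cells with the knockdown and either no transgene or WT both held more SNPH than uninfected cells. Without a transgene it had 2.54 and 2.64 CPM and 3.14 and 2.96 CPM (1.67 ± 0.54, adjusted p = 0.0207; 1.74 ± 0.42, adjusted p = 0.000507), where 25.8% and 39% of genes passed. WT against uninfected gave 1.74 ± 0.52 (adjusted p = 0.032) and 1.49 ± 0.42 (adjusted p = 0.0062), where 8.27% and 21.2% of genes passed. Both comparisons use the same uninfected libraries. Without the second uninfected cytoplasmic-labelled library the changes were 0.98 (adjusted p = 0.26) and 1.05 (adjusted p = 0.342). The cytoplasmic call of the cells without a transgene was also lost without their second library (1.66, adjusted p = 0.0782). The cytoplasmic WT call was also lost without the first or the second WT library (adjusted p = 0.0958 and 0.197), without the T532M libraries in the fit (0.0504) and in a fit of both sets (0.057). In the nuclear-labelled libraries it was lost without the first WT (1.21, adjusted p = 0.0925) or the first uninfected library (1.04, adjusted p = 0.163), or with the second R376C library kept (adjusted p = 0.127). No transgene against WT gave -0.07 ± 0.44 and 0.25 ± 0.33 for SNPH, neither passing, where 8.4% and 18% of genes did.

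Among the mutants, G325E had the next highest SNPH after T532M. It held 6.40 and 7.88 CPM against 2.65 and 2.98 CPM in WT (1.29 ± 0.36, adjusted p = 0.0264, 6.15% of genes passing), and 5.28 and 5.27 CPM against 3.21 and 2.19 CPM in the nuclear-labelled libraries (1.01 ± 0.29, adjusted p = 0.00868, 17.3% of genes passing). The cytoplasmic call was lost without any of its 4 libraries (1.15 to 1.42) and without the T532M libraries in the fit (adjusted p = 0.0597). The nuclear call was lost without the first G325E library (1.00, adjusted p = 0.0565) or the second WT library (0.73, adjusted p = 0.204), or with the second R376C library kept (adjusted p = 0.267). R534S gave 1.06 ± 0.36 (adjusted p = 0.0713) and 0.79 ± 0.31 (adjusted p = 0.0572), where 7.39% and 20.4% of genes passed. R326H gave 0.65 ± 0.39 and 0.40 ± 0.32, R351W 0.65 ± 0.39 and 0.17 ± 0.32, and R376C 0.40 ± 0.51 and -0.26 ± 0.47, none passing. The shares of all genes passing were 5.23% and 17.7% for R326H, 5.65% and 15% for R351W, and 0.827% and 2.75% for R376C. The mutants' comparisons share the WT libraries, so their values are given side by side without a test of their likeness. Those WT libraries were also the control of the comparison that chose the genes.

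**Figure D3:**
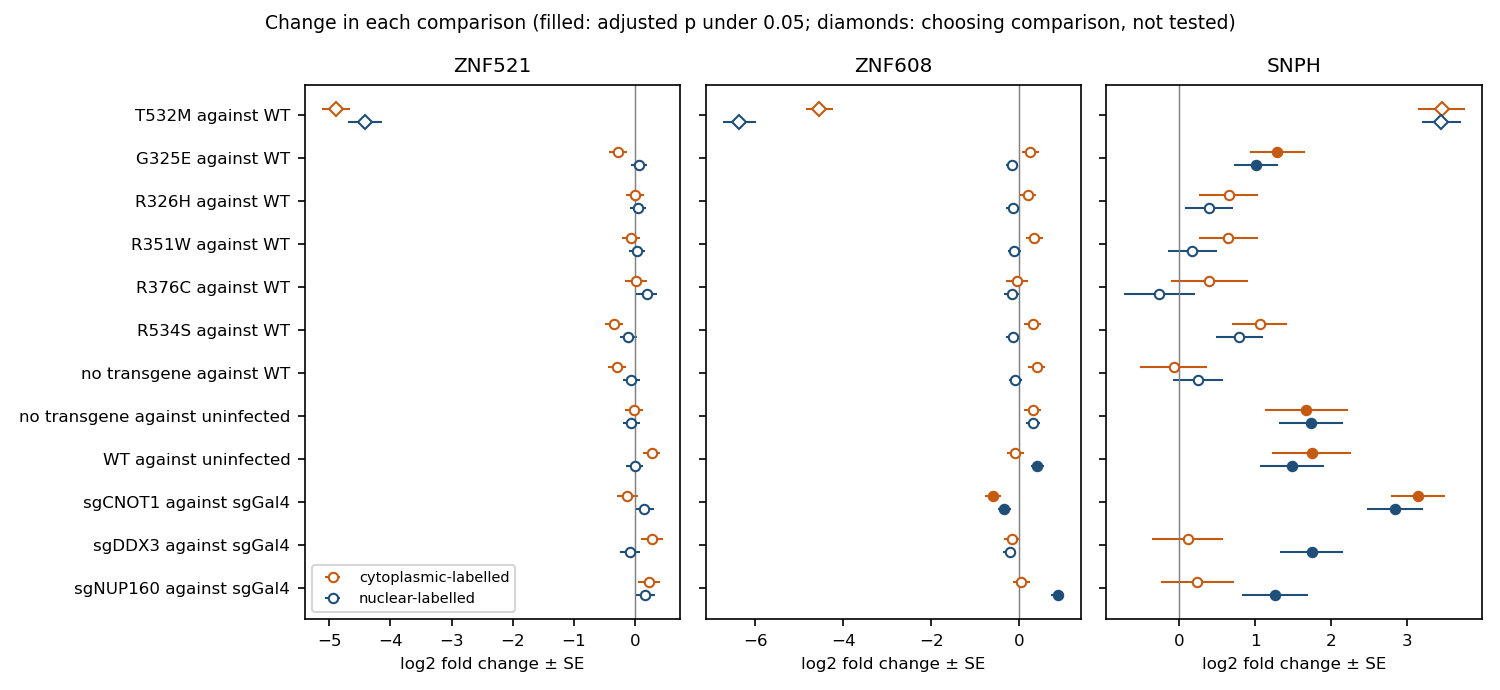
Log2 fold change ± SE of each gene in each comparison, orange for cytoplasmic-labelled and blue for nuclear-labelled libraries. Filled points passed adjusted p under 0.05, open points did not, and open diamonds mark the comparison that chose the genes and was not tested. ZNF521 has no filled point, ZNF608 has 4 and SNPH 10.

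In order of level, SNPH in the cytoplasmic-labelled libraries ran from uninfected (0.872 ± 0.767 CPM) through sgGal4, no transgene, sgDDX3, WT, sgNUP160, R376C, R326H, R351W, R534S and G325E to sgCNOT1 and T532M. Neighbours overlapped from sgGal4 to sgNUP160 and from R376C to R351W. The libraries of sgGal4, R376C (1 library), R534S, G325E, sgCNOT1 and T532M each lay above the genotype before. In the nuclear-labelled libraries the order ended with R534S, sgDDX3, G325E, sgCNOT1 and T532M. Between fractions, uninfected and sgGal4 cells held less ZNF521 (-0.67 ± 0.14, adjusted p = 3.12e-05, and -0.44 ± 0.19, adjusted p = 0.0419) and less ZNF608 (-0.60 ± 0.17, adjusted p = 0.00144, and -0.62 ± 0.18, adjusted p = 0.00304) in the nuclear-labelled libraries, where 72.5% and 65% of genes differed. These 4 calls were lost when counts of both strands were used, with log2 differences of -0.13 to -0.36. Both sgGal4 calls were also lost without the first cytoplasmic-labelled or the second nuclear-labelled sgGal4 library (adjusted p = 0.138 and 0.497 for ZNF521, 0.0619 and 0.109 for ZNF608). The ZNF521 call was lost without the second cytoplasmic-labelled one (adjusted p = 0.274), and the uninfected ZNF608 call without the first cytoplasmic-labelled library (adjusted p = 0.106). SNPH did not pass (0.58 ± 0.60 and -0.37 ± 0.51, adjusted p = 0.384 and 0.533).

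Neighbouring genes were read to see whether the change extended along the chromosome. Next to ZNF521, SS18, a subunit of chromatin remodelling complexes, had log2 changes of 0.10 ± 0.14 and 0.13 ± 0.08 in T532M against WT, and IMPACT 0.08 ± 0.26 and -0.09 ± 0.16. TAF4B, a subunit of the transcription factor TFIID, had -0.66 ± 0.13 and -0.24 ± 0.12. Next to ZNF608, CSNK1G3, a casein kinase, had -0.24 ± 0.19 and -0.34 ± 0.11, CEP120 -0.41 ± 0.13 and -0.51 ± 0.12, PHAX 0.18 ± 0.25 and -0.35 ± 0.12, and PRDM6 1.29 ± 0.34 and 1.19 ± 0.32. Next to SNPH, TMEM74B had -0.11 ± 0.15 and 0.40 ± 0.21, FKBP1A -0.12 ± 0.11 and -0.16 ± 0.06, and SDCBP2 -0.61 ± 0.66 and -0.22 ± 0.73. None of these neighbours had a log2 change as large as the gene beside it. RAD21L1, which overlaps SNPH on the same strand (chr20:1226056-1296421), had 2.06 ± 0.74 in the cytoplasmic-labelled libraries (adjusted p = 0.0558), with at most 40 counts in a library. In the T532M nuclear-labelled libraries RAD21L1 had 3 and 2 counts, where SNPH had 179 and 156. Reads of the overlap cannot be told apart by gene, and the part of RAD21L1 in the SNPH counts was not tested.

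**Figure D4:**
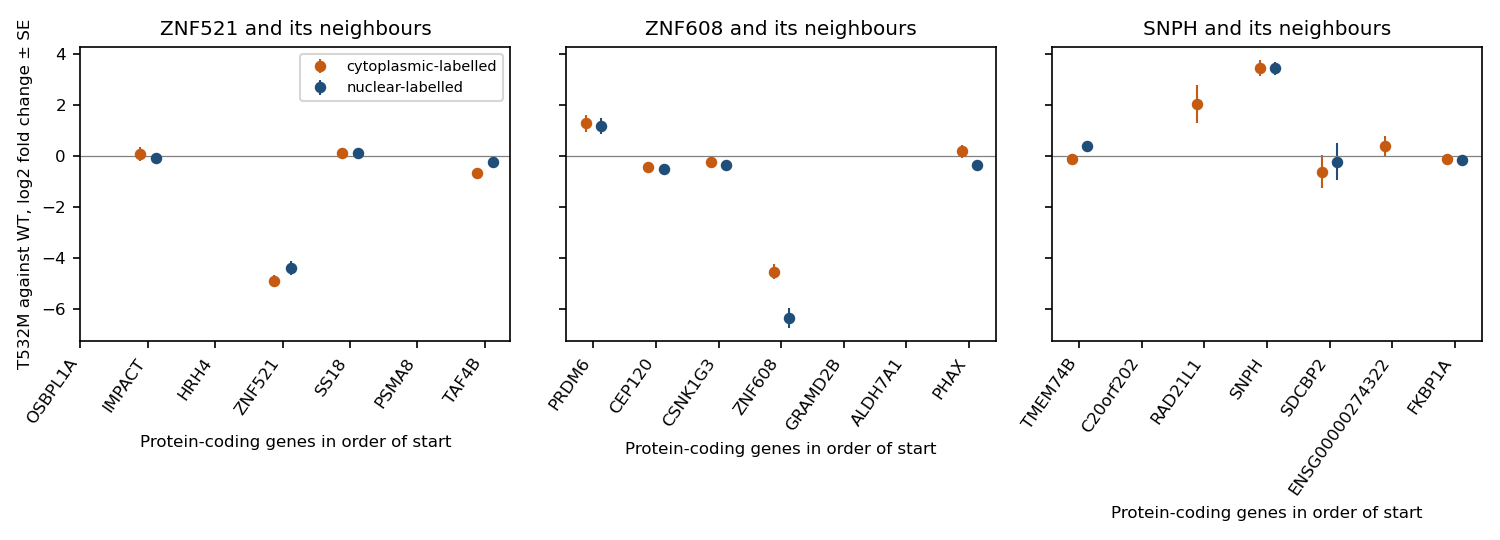
Log2 fold change ± SE of T532M against WT for each gene and its 3 neighbouring protein-coding genes on each side, in order along the chromosome. Genes without a point did not pass the expression filter. The central gene has the largest change in each panel.

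Genes with the most similar levels to each of the 3 were taken over 18 genotype means (9 genotypes by 2 labelled fractions, each fraction centred), out of 13968 genes. For ZNF521 they were PLAU (r = 0.99), PKD1P6, ZNF608, MAML2 and CD53, and for ZNF608 they were PKD1P6, PLAU, SYTL2, ZNF521 and NIBAN2. In T532M against WT, MAML2 had -4.40 ± 0.31 and -3.51 ± 0.38, SYTL2 -2.26 ± 0.23 and -3.65 ± 0.36, and PLAU, which encodes urokinase, -1.68 ± 0.22 and -1.73 ± 0.28. PKD1P6, a pseudogene with near-identical copies and so an uncertain count, had -3.28 ± 0.18 and -3.48 ± 0.36. Leaving T532M out, over 16 means, the correlation of ZNF521 with PLAU was -0.01 and with ZNF608 -0.44. Over all 5 partners, r without T532M ran from -0.44 to 0.41 for ZNF521 and from -0.44 to 0.56 for ZNF608. The nearest to SNPH were NOTCH2 (r = 0.97), a receptor of the Notch pathway, ANKRD13B, RBPMS2, NEU4 and TUBA4A. Without T532M they had r = 0.87 to 0.94, over 16 of the 18 means that had picked them. Ranked anew without T532M, the nearest were FN1 (r = 0.96), THBS1, STK35, NOTCH2 and NXN. FN1 had r = -0.46 over all 18 means. NOTCH2 had 1.50 ± 0.14 and 1.67 ± 0.19 in T532M against WT. These correlations describe genes measured in the same libraries and carry no test.

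**Figure D5:**
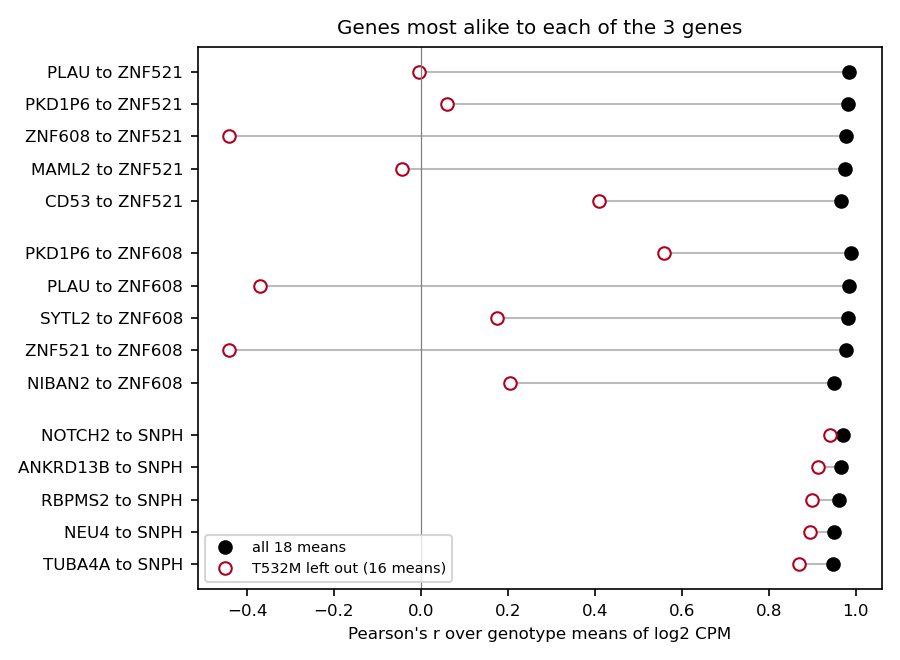
Pearson's r between each gene and its 5 most similar genes over genotype means of log2 CPM, with all means (black) and with T532M left out (open red). The values for ZNF521 and ZNF608 partners drop without T532M and those for SNPH partners stay at 0.87 or above. The means without T532M are part of those that picked the genes.

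No paralog that could be tested passed in T532M against WT. ZNF609, the paralog of ZNF608, had -0.20 ± 0.09 (adjusted p = 0.12) and -0.12 ± 0.06 (adjusted p = 0.103) and SYBU, the syntaphilin relative syntabulin, had 0.57 ± 0.79 in the cytoplasmic-labelled libraries. DDX3X itself differed by 0.33 ± 0.09 and 0.23 ± 0.05 between T532M and WT (adjusted p = 0.0102 and 0.000293), with 400 and 386 CPM against 314 and 317 CPM in the cytoplasmic-labelled libraries.

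The partners and functions of the 3 genes were read from lists of known genes. Of 13 NuRD subunits tested, 4 rose and none fell in T532M cytoplasmic-labelled libraries (median 0.08, against -0.01 over all genes), and 6 rose and 3 fell in nuclear-labelled ones (median 0.01, against -0.02), where 14.7% and 35.1% of all genes passed. CHD3, a remodeller ATPase, rose by 0.73 ± 0.09 and 0.48 ± 0.06, GATAD2A, a scaffold subunit, by 0.38 ± 0.10 and 0.73 ± 0.06, and MTA1 had 0.08 ± 0.11 and 0.59 ± 0.08. MTA2 rose by 0.36 ± 0.10 and 0.34 ± 0.06, HDAC1 by 0.31 ± 0.09 and 0.20 ± 0.05, and RBBP7 fell by 0.29 on the log2 scale in the nuclear-labelled libraries. EBF4, the only EBF gene past the filter, had 0.69 ± 0.49 and 1.98 ± 0.81 (adjusted p = 0.0496 in the second). RAG1 had -1.14 ± 0.56 and -0.32 ± 0.43 (adjusted p = 0.183 and 0.615).

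Of the mitochondrial transport and shape genes, 4 of 15 tested rose and 3 fell in the cytoplasmic-labelled libraries (median 0.20). In the nuclear-labelled ones 3 of 16 rose and 2 fell (median 0.02). Beside these counts and those of the SNARE genes, 14.7% and 35.1% of all genes passed in the 2 fractions. TRAK2, an adaptor of mitochondria to kinesin, fell (-1.40 ± 0.16 and -1.11 ± 0.12, adjusted p = 4.49e-08 and 9.08e-13), and KLC2, a kinesin light chain, rose by 0.70 ± 0.13 and 0.43 ± 0.11. In the cytoplasmic-labelled libraries, the motor KIF5A and the adaptor FEZ1 fell by 0.63 and 0.90, and KLC1 and ARMCX3 rose by 0.53 ± 0.11 and 0.50 ± 0.15. None of 4 and 1 of 4 syntaxin SNARE genes tested rose, STX1A by 1.07 ± 0.35 in the nuclear-labelled libraries.

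Of 10 blood progenitor regulators tested, 2 rose and 4 fell in the cytoplasmic-labelled libraries (median -0.16). In the nuclear-labelled ones 6 rose and 3 fell (median 0.20). Beside these counts and those of the marker lists below, 14.7% and 35.1% of all genes passed. KIT, the stem cell factor receptor, had -1.31 ± 0.11 and -0.98 ± 0.09, GFI1, a repressor of transcription, -0.86 ± 0.21 and -0.74 ± 0.23, and MYB -0.81 ± 0.09 and -0.15 ± 0.06, all passing. MEIS1 rose by 0.66 ± 0.13 and 0.76 ± 0.15 and GFI1B by 0.47 ± 0.15 and 0.59 ± 0.08, and TAL1 rose by 0.46 ± 0.08 in the nuclear-labelled libraries. Of 9 K562 markers tested, 4 rose and none fell in cytoplasmic-labelled libraries (median 0.28) and 6 rose and 3 fell in nuclear-labelled ones (median 0.51). BCR and ABL1, the parts of the line's fusion gene, rose by 0.29 ± 0.10 and 0.58 ± 0.06 and by 0.28 ± 0.08 and 0.51 ± 0.05, and HBZ by 0.69 ± 0.22 and 0.51 ± 0.09. HBG1, a fetal globin gene that shares reads with its near-identical copy HBG2 and so is uncertain, had 2.39 ± 0.46 and 1.63 ± 0.18. The lymphocyte list had no call in either fraction. The neuron list had 1 rise of 3 tested in each fraction, GAD1 by 0.43 ± 0.09 in the cytoplasmic-labelled and SLC17A7 by 0.93 ± 0.31 in the nuclear-labelled libraries, and the fibroblast and epithelial list had 1 fall, EPCAM by 0.38 on the log2 scale in the nuclear-labelled libraries. In the cytoplasmic-labelled libraries the summed neuron markers were 414 to 441 CPM in T532M against 314 to 325.2 CPM in WT, and the summed fibroblast and epithelial markers, mostly EPCAM, 17.2 to 19.2 CPM against 22.1 to 22.5 CPM. In the nuclear-labelled libraries the neuron sums overlapped, at 77.4 to 94.8 CPM in T532M and 88.4 to 91.2 CPM in WT, and the fibroblast and epithelial sums were 16.6 to 17.2 CPM against 24.0 to 25.1 CPM. The part of these in the levels of the 3 genes was not tested.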

How the data were processed

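Gene counts were analysed for 50 libraries of K562 cells in 2 labelled fractions. The submitters' processing notes name STAR 2.7.5a and GRCh38, and the annotation that was counted is not named in the sources. The deposited files hold raw read counts per gene for both strands together and apart, which the authors did not normalize, and the sense-strand count was used here because the kit is directional. The 3 genes and the gene lists were chosen with earlier results of these data known. Counts were fitted in R 4.3.3 with edgeR 4.0.16 (robust quasi-likelihood, TMM, default expression filter, a coefficient per genotype, adjusted p under 0.05), separately for each set and labelled fraction and jointly for fraction contrasts. CPM are deposited counts per 1000000 gene counts of the library, without TMM, and ± after a fold change is its standard error. DESeq2 1.42.0, other filters and other sample choices were alternatives. Tests were checked on simulated data. The joint test of the fractions' changes and the fit without sgCNOT1 were added after seeing the data. The genes named singly are the 3 genes, list genes passing in T532M against WT (up to 6 a list, largest first), the most similar genes and the neighbours. The most similar genes are the 5 over all means, and for SNPH also the 5 without T532M. AFP, LYPD6B and DDX3X were named after their values were seen. Replicate pairs differed beyond counting noise, the lowest ratio of chi-square to its degrees of freedom being 2.04. Among pairs of libraries used, the ratio was highest for sgCNOT1, at 27.6 (cytoplasmic-labelled) and 13 (nuclear-labelled). The replicate numbers did not pair the samples.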

Additional observations from a re-analysis of the deposited data

Results flagged for a closer look

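Reads on the strand opposite to a gene were the data outside the comparisons. On that strand ZNF608 had at least 4 counts in the lower sgNUP160 nuclear-labelled library, and SNPH at least 4 in T532M, 5 in sgCNOT1 and 8 in sgNUP160 cytoplasmic-labelled libraries, above WT or sgGal4 per 1000000 gene counts. For T532M the margin was small, at 0.704 and 0.717 against 0 and 0.662 in WT, whose second library also had 4 counts, and G325E (up to 1.28) and cells without a transgene (up to 0.923) reached higher. In sgNUP160, SNPH had 18 and 8 opposite-strand counts against 10 and 7 sense counts. The ZNF608 change in sgNUP160 cells differed between the labelled fractions by 0.91 on the log2 scale (adjusted p = 0.0338, edgeR's quasi-likelihood test).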

How the results depend on the processing

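The T532M values kept their direction under every alternative run. Leaving out libraries in turn, the log2 change of T532M against WT ran from -5.70 (without the first T532M library) to -4.53 for ZNF521 in cytoplasmic-labelled libraries and from -6.66 to -6.19 for ZNF608 in nuclear-labelled ones. Of the 24 tests of the 3 genes in the other genotypes of the transgene set, 3 passed among cytoplasmic-labelled libraries and 4 among nuclear-labelled ones. In those comparisons 0.827% to 25.8% and 2.75% to 39% of all genes passed. Without libraries in turn the calls of the 3 genes were 1 to 5 and 2 to 4. Only cells without a transgene gained calls, in the cytoplasmic-labelled fraction with 1 of their libraries left out. These were ZNF521 against WT (-0.50), and ZNF608 against WT (0.68) and against uninfected cells (0.59). Calls were 1 cytoplasmic without the T532M libraries, and 1 nuclear with the second R376C library kept. The latter fit puts 2 unlike libraries in 1 group, with a ratio of chi-square to its degrees of freedom of 187. The added library resembled the cytoplasmic-labelled ones in its read shares, so the calls lost in that fit do not measure how stable they are. Of the 9 tests in the guide set, where 2.77% to 22% and 15.9% to 49.6% of all genes passed, 2 and 5 passed. Calls there were 1 to 2 and 3 to 5 without libraries in turn. Without sgCNOT1, which removes its own comparison, 0 and 3 passed, and with DESeq2 3 nuclear ones did. Between the fractions 2 of the 3 genes passed in uninfected and 2 in sgGal4 cells, where 72.5% and 65% of all genes did. With counts of both strands 0 passed in each, with no low-count filter 1 in sgGal4, and without libraries in turn 1 to 2 and 0 to 2. With the replicate block 3 and 4 passed in the transgene set and 2 and 4 in the guide set. The call it lost was ZNF608 in sgCNOT1 nuclear-labelled libraries (-0.34, adjusted p = 0.0639), and it changed no other call. The replicate numbers did not pair the samples, since differences between replicates correlated by a median of -0.02 and -0.007 in the transgene set and 0.104 and -0.027 in the guide set, with the lowest pair below 0 in each (guide cytoplasmic-labelled pairs ran from -0.053 to 0.417). No result reversed. The calls kept under every alternative run were SNPH in sgCNOT1 (both fractions), SNPH in sgDDX3 and in cells without a transgene against uninfected (nuclear), and ZNF608 in sgNUP160 (nuclear). The cause of the changes was not tested. Depth limits SNPH, with as few as 2 counts in an uninfected library, and ZNF608 in T532M nuclear-labelled libraries, with 2 and 1 counts.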
